A study of Mus musculus with 20 samples.

Results

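Cholesterol balance in macrophages was followed through 32 genes of its synthesis, sensing, transfer, storage and efflux, out of the 22165 genes of the count table. The members were chosen by symbol, with each of the 32 symbols matching 1 row. They fall into 18 genes of synthesis, 8 of sterol sensing and 6 of uptake, storage, transfer and efflux, and these are described in that order. The cells were macrophages grown for 7 days from bone marrow of wild-type C57BL/6 mice in RPMI with macrophage colony-stimulating factor (m-CSF), which drives the differentiation of macrophages. RNA was taken at 0 h, ahead of any stimulus, and at 1, 2, 4 and 6 h after lipopolysaccharide (LPS) with interferon gamma (IFNg). In the DI groups, dimethyl itaconate (DI, written Demethyl Itaconate in the labels), a cell-permeable ester of the immune metabolite itaconate, was added at 250 µM, starting 12 h ahead of the stimulus. The Ctrl groups had no DI. Each of the 10 groups held 2 libraries, and no source says that these came from separate cultures or animals. The p-values therefore rest on the spread between libraries of a group, which may be technical and was pooled over all 10 groups.

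Animal cells build cholesterol from acetyl-CoA through mevalonate, isoprenoid units and squalene to lanosterol, which a chain of late enzymes trims to cholesterol. When sterols are low in the membrane of the endoplasmic reticulum, SCAP escorts the SREBP transcription factors to the Golgi, where they are cut and released to switch on synthesis and uptake. INSIG proteins hold SCAP back when sterols or oxysterols are plentiful. Oxysterols, among them the product of CH25H, also activate the nuclear receptors LXRα and LXRβ, which induce the pumps that export cholesterol. Macrophages take in much cholesterol from lipoproteins and dead cells, release it from lysosomes through NPC1 and NPC2, store it as esters and pass the excess to lipoprotein particles outside the cell. CH25H is also known as an interferon-induced gene with antiviral and immune functions.

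The promoters of 4 members are shown, because they span synthesis (Hmgcs1 and Mvk), oxysterol production (Ch25h) and efflux (Abca1). Each stretch of 140 bases runs from 160 to 21 bases before the RefSeq transcript start in GRCm38.p6, outside annotated exons. The capitals mark TCACNCCAC, a form of the sterol response element that SREBP binds, and CCAAT, the box bound by the SREBP partner NF-Y, on either strand. The stretches are chr13:119690191-119690330 on the plus strand, chr5:114444109-114444248 on the plus strand, chr19:34475169-34475308 on the minus strand and chr4:53159916-53160055 on the minus strand.
Hmgcs1: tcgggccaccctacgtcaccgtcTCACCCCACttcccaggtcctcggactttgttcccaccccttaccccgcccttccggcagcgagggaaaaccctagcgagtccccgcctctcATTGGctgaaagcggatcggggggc
Mvk: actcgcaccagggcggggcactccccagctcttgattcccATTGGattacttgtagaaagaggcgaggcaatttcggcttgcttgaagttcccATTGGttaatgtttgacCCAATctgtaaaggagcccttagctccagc
Ch25h: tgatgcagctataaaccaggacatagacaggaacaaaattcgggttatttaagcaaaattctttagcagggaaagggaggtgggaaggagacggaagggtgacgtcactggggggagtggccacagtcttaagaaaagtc
Abca1: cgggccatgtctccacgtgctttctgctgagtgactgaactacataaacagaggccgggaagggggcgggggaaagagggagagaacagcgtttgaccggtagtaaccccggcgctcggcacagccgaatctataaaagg
Hmgcs1 carries the sterol response element and a CCAAT box, and Mvk carries 3 CCAAT boxes. The stretches of Ch25h and Abca1 hold neither motif. RefSeq windows of 300 bases, from 250 before to 50 after the start, were found for 26 of the 32 members, in 35 windows. Both strands were searched, and the motifs do not overlap each other in these stretches. TCACNCCAC was in 1 of the 35 member windows, that of Hmgcs1, against 1.24% of all 32851 windows. CCAAT was in 21 of the 35 member windows, those of 20 genes, against 37.4% of all windows, and 11 of the 35 held at least 2 copies against 11.7%. GAAANNGAA, a core bound by interferon regulatory factors, was in 1 of the 35, that of Ebp, against 8.56%. These are matches of letters and not tests of binding.

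A Ctrl library held 3655977 to 8938983 counts in total, and a DI library 3982073 to 6725447. The DI libraries stood apart by their low complexity, with 333 to 674 genes at 1 to 3 counts against 1370 to 1741 in Ctrl. Among genes expected at 4 to 12 counts, the share without any count was 3.04 to 13.5% in Ctrl and 17.2 to 50.4% in DI, and genes without counts were most numerous in DI replicate 2 at 2, 4 and 6 h. This gap touches low members most, and its part in their results was not tested. All 7 macrophage markers reached a mean of 5 CPM in both treatments, and their summed level was 3115 to 4713 CPM in Ctrl and 2602 to 4361 CPM in DI. The summed level of 6 neutrophil markers was 244 to 619 CPM in Ctrl and 273 to 527 CPM in DI, with Camp, Ltf, S100a8 and S100a9 above 5 CPM on average in both. That of 4 fibroblast markers was lower in DI, at 3.92 to 31.5 CPM against 24.4 to 60.1 CPM in Ctrl, and its part in the results below was not tested. The 4 dendritic cell markers summed to 6.14 to 16.7 CPM in Ctrl and 3.79 to 23.6 CPM in DI, the T cell markers to 0.274 to 5.07 CPM and 0.230 to 11.4 CPM with Cd3e at 0 throughout, and the B cell markers to 1.64 to 5.02 CPM and 0 to 3.77 CPM. A lower level in such bulk samples cannot separate fewer expressing cells from less RNA per cell.

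Levels are counts per 1000000 (CPM) scaled with edgeR's trimmed means (TMM). Since reads come from the 3' ends and were not set against transcript length, levels are compared within a gene and not between genes. Changes are log2 fold changes from edgeR's quasi-likelihood model with their standard error, and a gene was called at a Benjamini-Hochberg adjusted p under 0.05 over the 10663 genes tested. Of the 32 members 31 were tested. Fdps, which makes farnesyl diphosphate, had too few counts, at 0 to 1.20 CPM in Ctrl and 0 to 2.39 CPM in DI. The TMM factors themselves fell with time, from 1.40 and 1.38 in Ctrl at 0 h to between 0.734 and 0.808 at 4 and 6 h. Scaled by library totals instead, the median change of all genes from 0 h in Ctrl moves by −0.303, −0.568, −0.865 and −0.817 at 1, 2, 4 and 6 h, and in DI by −0.231, −0.454, −0.615 and −0.554. Changes over time are therefore relative to the bulk of genes.

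Between DI and Ctrl few members were called at any time. At 0 h 1 member was lower with DI (Ch25h) and 0 were higher, against 2.17% and 1.43% of all tested genes. At 1 h 2 were lower (Ch25h and Nr1h3) and 0 higher, against 3.03% and 1.86%, and at 2 h 1 was lower (Ch25h) and 0 higher, against 3.97% and 2.27%. At 4 h 2 were lower (Ch25h and Insig1) and 2 higher (Npc1 and Soat1), against 6.00% and 3.43%. At 6 h 3 were lower (Ch25h, Idi1 and Srebf2) and 1 higher (Npc1), against 8.95% and 5.24%. As a share of the 31 members these counts are near the background. At an unadjusted p under 0.05 the members higher with DI were 1, 1 and 2 at 0, 1 and 2 h, where edgeR called 0. DESeq2's Wald test and limma-voom each called 1 of them at 0 h, Npc1, and 0 at 1 and 2 h.

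Against 0 h, up to 9 of the 31 tested members were called in Ctrl. As a share of the members, the counts with TMM scaling below are near the background in both treatments. No unstimulated group was sampled after 0 h, so the stimulus and time cannot be told apart. At 1 and at 2 h 2 members were higher than at 0 h (Ch25h and Insig1) and 0 were lower, against 3.65% and 0.422% of all tested genes at 1 h and 9.13% and 3.09% at 2 h. At 4 h 3 were higher (Ch25h, Insig1 and Npc2) and 4 lower (Abca1, Msmo1, Npc1 and Stard4), against 14.7% and 9.58%. At 6 h 5 were higher (the same 3 with Abcg1 and Nr1h2) and the same 4 lower, against 15.2% and 11.3%. Scaled by library totals the split in Ctrl was 2 higher and 4 lower at 2 h, 2 and 11 at 4 h, and 1 and 10 at 6 h. The median of all tested genes was then −0.68, −1.01 and −0.99, and their called share was not counted. In DI 2 were higher at 1 h (Ch25h and Insig1) and 4 at 2 h (these with Abca1 and Abcg1), with 0 lower, against 3.29% higher and 0.300% lower at 1 h and 7.89% and 3.09% at 2 h. At 4 h 3 were higher (Ch25h, Insig1 and Nr1h2) and 2 lower (Lss and Mvk) in DI, against 11.4% and 7.34%. At 6 h 3 were higher (Abcg1, Ch25h and Npc2) and 3 lower (Idi1, Npc1 and Srebf2), against 11.2% and 8.91%. By library totals the split in DI was 2 higher and 1 lower at 2 h, 1 and 9 at 4 h, and 1 and 10 at 6 h. The all-gene median was then −0.50, −0.73 and −0.65, again without a count of the share called. Lower members at an unadjusted p under 0.05 numbered 0 and 1 at 1 and 2 h in Ctrl and 2 and 1 in DI. There DESeq2's Wald test called 0 lower members in either course, and limma-voom called 3 at 2 h in Ctrl (Msmo1, Sc5d and Stard4) and 0 at the other 3 points.

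The test of whether the response itself differed, the change in DI minus the change in Ctrl, called 0 members at 1, 2 and 4 h in either direction with edgeR. The background was 0.0375% higher and 0.216% lower at 1 h, 0.113% and 0.244% at 2 h, and 0.188% and 0.572% at 4 h. At 6 h 1 member was lower (Idi1) and 0 were higher, against 0.975% and 0.572%. Members at an unadjusted p under 0.05 numbered 1, 2 and 2 higher and 0, 0 and 2 lower at 1, 2 and 4 h, and 0 higher at 6 h, and DESeq2's Wald test and limma-voom called 0 in each of these. So beyond Idi1, a change called in Ctrl and not in DI, or the reverse, is not shown to differ between them.

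With edgeR and TMM scaling 1 of the 17 tested synthesis genes was called lower in Ctrl at 4 and at 6 h and 2 and 1 in DI. These counts are near the background, which was 9.58% and 11.3% of all tested genes in Ctrl and 7.34% and 8.91% in DI. The summed level of the synthesis genes was lower late in the time course in both treatments. The sum over the 18 genes was 148.1 ± 4.50 CPM (SD, n = 2) at 0 h in Ctrl and 140.0 ± 21.3, 114.6 ± 3.57, 101.0 ± 8.38 and 97.8 ± 5.49 CPM at 1, 2, 4 and 6 h. In DI it was 146.2 ± 19.6, 118.8 ± 3.78, 111.2 ± 12.5, 114.6 ± 18.2 and 90.5 ± 11.5 CPM. The Ctrl libraries at 2, 4 and 6 h all lay below those at 0 h, while the DI and Ctrl sums overlapped at every time but 1 h, where both DI libraries were under both Ctrl libraries. These sums were not tested, and the genes with the highest levels weigh most in them. In Ctrl Msmo1 had means of 32.7 and 10.9 CPM at 0 and 6 h and Sc5d 19.0 and 9.41 CPM. Ebp did not fall, with means of 37.0 and 39.4 CPM. By library totals 5 and 6 of the 17 were called lower in Ctrl at 4 and 6 h and 5 and 4 in DI. The medians of all tested genes were then −1.01 and −0.99 in Ctrl and −0.73 and −0.65 in DI. With limma-voom 3 and 6 of the 17 were called in Ctrl and 1 and 1 in DI. The share of all genes called was counted under neither. The median log2 change of the 17 tested genes from 0 h in Ctrl was −0.22, −0.27, −0.82 and −1.21 at 1, 2, 4 and 6 h, beside −0.03, −0.11, −0.15 and −0.17 over all tested genes. In DI it was −0.32, −0.17, −0.74 and −0.93, beside 0.02, −0.05, −0.12 and −0.10. The genes with a negative value numbered 11, 12, 13 and 12 of 17 in Ctrl and 11, 11, 11 and 13 in DI. Of DI against Ctrl the medians were −0.23, −0.31, 0.05, 0.03 and −0.37 at 0, 1, 2, 4 and 6 h, beside −0.05, 0.00, −0.03, −0.07 and −0.03 over all genes, and with genes at 0 in a group set to their limit the values at 1 and 6 h were −0.23 and −0.12.

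**Figure D1:**
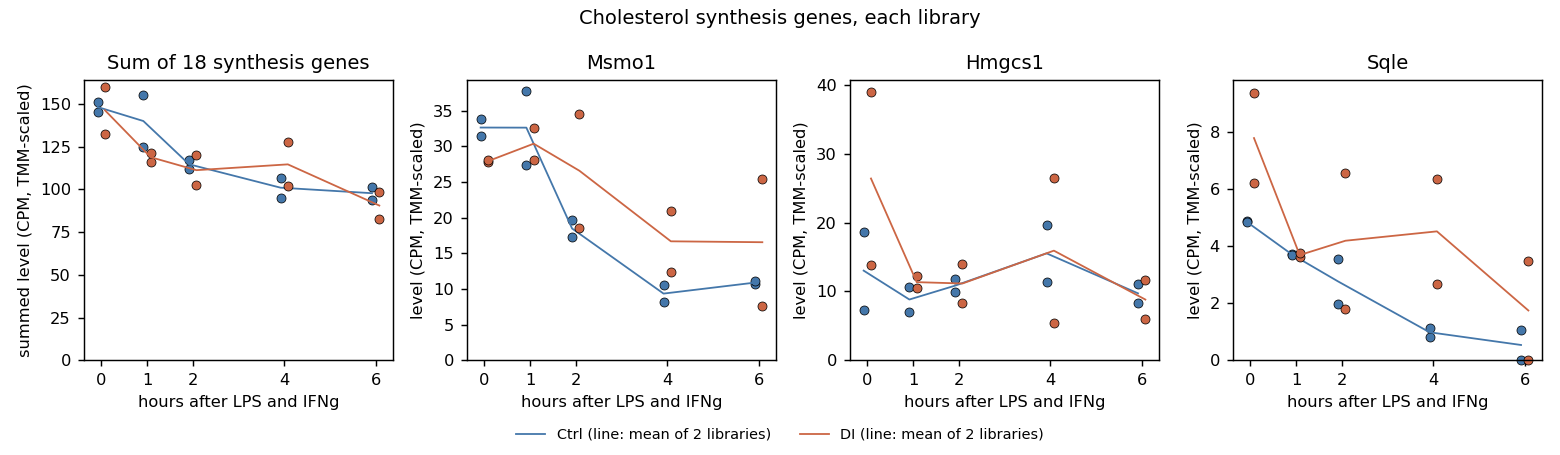
Level in CPM (TMM-scaled, linear axes from 0) of the sum of 18 synthesis genes and of Msmo1, Hmgcs1 and Sqle against hours after LPS and IFNg. Points are single libraries, lines join means of 2 libraries, Ctrl in blue and DI in orange; Msmo1 in Ctrl drops from above 30 CPM to near 10 CPM by 4 h, and the DI libraries spread widely.

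Msmo1, which encodes the methylsterol monooxygenase that acts after CYP51 on methyl groups left on lanosterol products, was the synthesis gene called in Ctrl by edgeR with TMM scaling. Its Ctrl libraries were at 31.4 and 33.9 CPM at 0 h, 27.5 and 37.8 at 1 h, 19.7 and 17.3 at 2 h, 10.6 and 8.15 at 4 h, and 10.7 and 11.1 at 6 h. Its DI libraries were at 27.8 and 28.1, 28.1 and 32.6, 18.6 and 34.6, 12.44 and 20.9, and 25.5 and 7.65 CPM at the same times. In Ctrl every library from 2 h on was below both at 0 h, whereas the DI libraries at 2 h and the pair at 6 h were far apart. In Ctrl it fell by 1.81 ± 0.45 at 4 h (edgeR adjusted p = 0.00419) and by 1.58 ± 0.46 at 6 h (adjusted p = 0.011). The call at 4 h was lost without Ctrl replicate 2 at 4 h (−1.63, adjusted p = 0.0718). That at 6 h was lost without Ctrl replicate 2 at 0 h, replicate 1 at 6 h or replicate 2 at 6 h, with adjusted p = 0.0536, 0.0808 and 0.0739. In DI the values were −0.75 ± 0.44 and −0.74 ± 0.44 with adjusted p = 0.256 and 0.254, and the response differences of 1.06 ± 0.63 and 0.85 ± 0.63 had adjusted p = 0.613 and 0.695.

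Hmgcs1 encodes the cytosolic HMG-CoA synthase at the entry of the mevalonate route, and edgeR with TMM scaling called it in no comparison. The Ctrl libraries were at 18.7 and 7.36, 7.06 and 10.6, 11.8 and 9.89, 11.4 and 19.7, and 11.1 and 8.37 CPM at 0, 1, 2, 4 and 6 h. The DI libraries were at 13.8 and 39.1, 10.45 and 12.3, 14.1 and 8.26, 5.37 and 26.5, and 11.7 and 5.95 CPM. Replicates were up to several times apart, and DI and Ctrl overlapped at every time. Its largest change was −1.57 ± 0.62 at 6 h in DI (adjusted p = 0.0773), which was −2.10 by library totals (adjusted p = 0.0136).

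Sqle, squalene epoxidase, the first oxygen-requiring step, was lower in stimulated Ctrl libraries than in both at 0 h without passing the test. In Ctrl the libraries were at 4.88 and 4.84, 3.73 and 3.68, 1.97 and 3.56, 0.834 and 1.13, and 1.07 and 0 CPM, the last pair being 3 counts and 0. In DI the libraries were at 9.37 and 6.22, 3.62 and 3.77, 6.58 and 1.81, 2.68 and 6.36, and 3.49 and 0 CPM. The Ctrl changes were −2.27 ± 1.09 at 4 h (adjusted p = 0.139) and −3.22 ± 1.25 at 6 h (adjusted p = 0.0588). By library totals they were −3.13 and −4.03 with adjusted p = 0.0243 and 0.0116, where the median of all genes was −1.01 and −0.99, and limma-voom called Sqle at 4 and 6 h and DESeq2's Wald test at 6 h.

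Idi1, the isomerase that interconverts the isoprenoid building units, was at 0 counts in both DI libraries at 6 h. Ctrl libraries stood at 2.48 and 2.02, 1.57 and 2.31, 2.22 and 3.17, 1.67 and 2.94, and 5.01 and 3.89 CPM. DI libraries stood at 1.41 and 10.3, 3.42 and 3.07, 3.40 and 4.64, 1.46 and 0, and 0 and 0 CPM, with 8 and 89 counts in the pair at 0 h. Set to a floor of 3 counts per library, the DI level at 6 h was 6.07-fold lower than Ctrl at 6 h (edgeR adjusted p = 0.00879). By the same floor it was 7.96-fold lower than DI at 0 h (edgeR adjusted p = 0.00359). The floor covers counting error only and is no bound. Other DI pairs held 28 counts and 0 (Fdft1 at 6 h) or 29 and 0 (Nsdhl at 4 h). The first call was lost without DI replicate 1 at 6 h (adjusted p = 0.0599) and the second without DI replicate 2 at 0 h (adjusted p = 0.0676). The response differed at 6 h (adjusted p = 0.0366), a call that 10 of 17 alternatives did not keep, among them the fits that each leave out Ctrl replicate 1 or 2 at 0 h, Ctrl replicate 1 or 2 at 6 h, DI replicate 2 at 0 h, or DI replicate 1 or 2 at 6 h (adjusted p = 0.136, 0.158, 0.122, 0.0874, 0.218, 0.101 and 0.103). In the 3 DI libraries without a read of Idi1, 5 to 7 of the 18 synthesis genes were at 0, against 0 to 3 in Ctrl libraries, and the part of low complexity in these calls was not tested.

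Lss and Mvk were called at levels under 10 CPM and are named after their values were seen. Lss closes squalene epoxide into lanosterol. Its DI libraries were at 2.30 and 7.03 CPM at 0 h and both at 0 at 4 h. With 4 h set to the floor of 3 counts per library, the level was 6.11-fold lower (edgeR adjusted p = 0.0123). That call was lost without DI replicate 2 at 0 h, DI replicate 1 at 4 h or DI replicate 2 at 4 h (adjusted p = 0.0634, 0.0604 and 0.0701), and when the compared groups were fitted alone (0.0601). Mvk, mevalonate kinase, whose promoter stretch above carries 3 CCAAT boxes, was at 5.48 and 2.88 CPM in DI at 0 h and at 0.244 and 0 CPM at 4 h. This is 1 count against 56, a ratio of 0.0325 with an exact 95% interval of 0.000809 to 0.189 for counting error only (edgeR adjusted p = 0.00955). The call was lost without DI replicate 2 at 4 h (adjusted p = 0.0754), with limma-voom (0.0832) and with the compared groups alone (0.172). In Ctrl Lss was at 3.12 and 1.92 CPM at 0 h and 0.358 and 0.299 CPM at 6 h. Mvk was at 2.72 and 4.54 CPM and at 1.07 and 0.897 CPM. In Ctrl edgeR with TMM scaling called neither.

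The other 11 tested synthesis genes were called in no comparison by edgeR with TMM scaling over all libraries. In Ctrl limma-voom called Sc5d lower at 2 and 6 h, Cyp51 at 4 and 6 h and Dhcr7 at 6 h. Ebp, the sterol isomerase, was at 32.2 to 53.2 CPM in Ctrl and 22.3 to 42.2 CPM in DI, with Ctrl changes of 0.06 to 0.21 at the 4 stimulated times by TMM, the value at 4 h being −0.80 by library totals (adjusted p = 0.0492). Sc5d, the sterol desaturase, was at 5.91 to 21.7 CPM in Ctrl and 2.06 to 16.0 CPM in DI, and Hsd17b7, a ketoreductase of the demethylation complex, at 1.43 to 9.41 and 2.26 to 10.6 CPM. Nsdhl, the decarboxylating dehydrogenase of that complex, was at 0.985 to 5.88 CPM and 0 to 9.63 CPM, and Cyp51, the lanosterol demethylase, at 1.20 to 7.86 and 0 to 7.32 CPM. Pmvk and Mvd, the kinase and the decarboxylase after Mvk, were at 1.97 to 6.44 and 2.21 to 6.10 CPM, and at 0 to 1.44 and 0 to 5.42 CPM. Fdft1, squalene synthase, was at 0.834 to 7.52 and 0 to 6.63 CPM, Acat2, the thiolase of the first step, at 0.528 to 2.71 and 0 to 1.95 CPM, and the late reductases Tm7sf2 and Dhcr7 at 0.299 to 2.92 and 0 to 4.13 CPM, and 0 to 4.68 and 0 to 2.39 CPM. Across the 18 genes, 12 never exceeded 10 CPM in any library, 4 had a Ctrl library at 0 and 12 had a DI library at 0.

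Among the sensing genes, Ch25h rose steeply after the stimulus and stayed far lower in DI cells at every time. CH25H makes an oxysterol by hydroxylating the side chain of cholesterol, and its gene lies at chr19:34473778-34475164 on the minus strand (GRCm38). The Ctrl libraries were at 2.72 and 3.23 CPM at 0 h, 40.0 and 56.4 at 1 h, 74.3 and 270.8 at 2 h, 128.4 and 148.1 at 4 h, and 554.3 and 277.4 at 6 h. The DI libraries were at 0 and 0, 6.63 and 4.18, 12.3 and 13.7, 7.32 and 5.83, and 5.14 and 7.36 CPM. No DI library reached the lower Ctrl library of its time, and the Ctrl libraries at 2 and at 6 h were themselves far apart.
At 0 h both DI libraries held no read. At a floor of 3 counts per library, which covers counting error only, the Ch25h level was 6.79-fold lower in DI (edgeR adjusted p = 0.00115). At 1, 2, 4 and 6 h it was lower by −3.17 ± 0.49, −3.74 ± 0.48, −4.39 ± 0.51 and −6.07 ± 0.54 on the log2 scale (adjusted p = 1.55e-04, 1.60e-05, 3.50e-06 and 4.43e-08). The 6 h call was kept under all 13 alternatives run. The others were lost with limma-voom with quality weights (adjusted p = 0.46, 0.155, 0.0528 and 0.0579 at 0, 1, 2 and 4 h), and that at 0 h also with the compared groups alone (0.111). No fit that left out 1 library ended any of these 5 calls. In Ctrl Ch25h rose by 4.02, 5.86, 5.53 and 7.12 from 0 h at 1, 2, 4 and 6 h (adjusted p = 3.86e-06, 1.27e-08, 1.87e-08 and 7.95e-10), in all alternatives run. In DI it was 12.3, 29.6, 15 and 14.3-fold higher than the floor of 3 counts per library at 0 h (edgeR adjusted p = 8.53e-05, 9.19e-07, 1.31e-05 and 1.84e-05). Each of these calls was lost with limma-voom (adjusted p = 0.62, 0.278, 0.284 and 0.284). The difference in response was not called at any time (adjusted p = 0.949, 0.696, 0.65 and 0.819), with a starting level in DI that could not be measured.

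**Figure D2:**
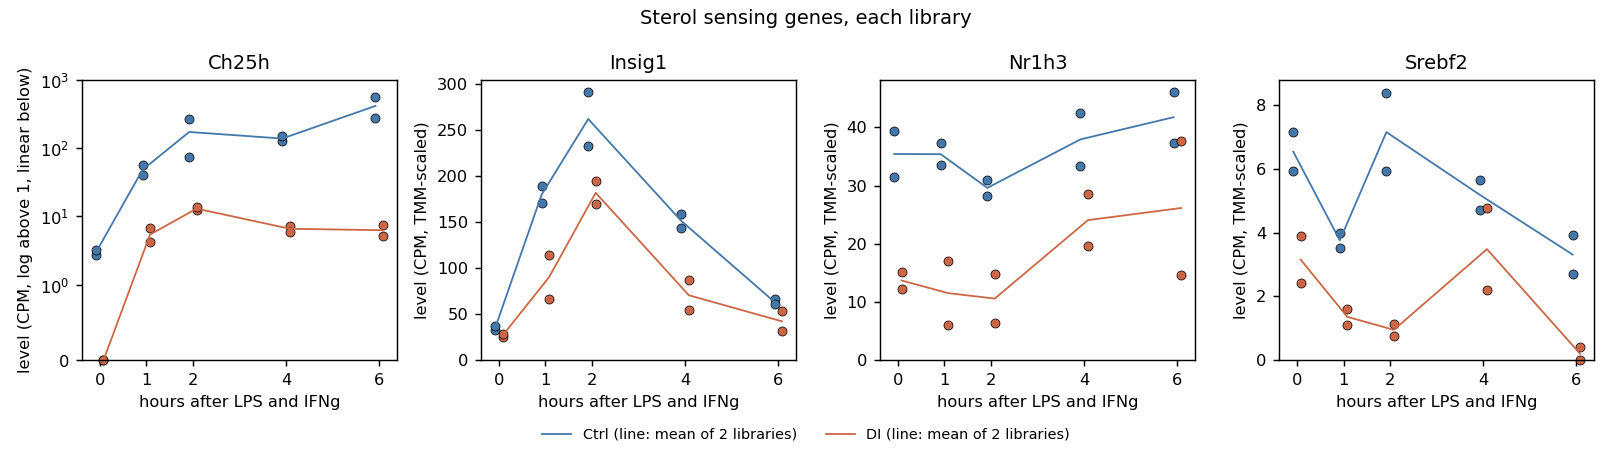
Level in CPM (TMM-scaled) of Ch25h (axis logarithmic above 1 CPM and linear below), Insig1, Nr1h3 and Srebf2 (linear axes from 0) against hours after LPS and IFNg. Points are single libraries and lines join means of 2 libraries; the DI libraries (orange) of Ch25h lie below the Ctrl libraries (blue) at all 5 times, and Insig1 peaks at 2 h in both.

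Insig1, the sterol-regulated retention factor for SCAP, rose early and transiently in both treatments. Its Ctrl libraries were at 32.9 and 37.1 CPM at 0 h, 171.2 and 189.4 at 1 h, 233.3 and 291.6 at 2 h, 143.9 and 159 at 4 h, and 66.2 and 60.7 at 6 h. With DI the values were 25.1 and 28.7, 66.9 and 114.1, 169.5 and 194.8, 86.9 and 54.6, and 31.4 and 53.2 CPM. Both series peaked at 2 h, and at every time the 2 DI libraries lay under the 2 Ctrl libraries. The Ctrl rises of 2.37 ± 0.32, 2.91 ± 0.33 and 2.11 ± 0.32 at 1, 2 and 4 h (adjusted p = 1.21e-05, 3.08e-07 and 1.62e-05) were kept under every alternative. The DI rises were 1.75 ± 0.32, 2.76 ± 0.33 and 1.39 ± 0.32 (adjusted p = 8.72e-04, 9.19e-07 and 0.00271), and the third was lost with library totals (0.78, adjusted p = 0.0565) and without DI replicate 1 at 4 h (1.02, 0.056). At 6 h Ctrl was at 0.86 ± 0.32 (adjusted p = 0.0459), which was 0.04 (0.922) by library totals and was lost without any 1 of its 4 libraries (adjusted p = 0.108 to 0.214), and DI was at 0.65 ± 0.32 (0.164).
For Insig1, DI against Ctrl was −0.38, −0.99, −0.53, −1.10 and −0.59 at the 5 times, called at 4 h (adjusted p = 0.026, and 0.0657 at 1 h). That call was lost in 6 of 13 alternatives, among them the fit without DI replicate 2 at 2, 4 and 6 h (−0.80, adjusted p = 0.173), without Ctrl replicate 1 or 2 at 4 h (−1.17 and −1.02, 0.0869 and 0.153), without DI replicate 2 at 4 h (−0.80, 0.254) and with library totals (−0.91, 0.0633).

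Insig2, the second retention factor, was not called. The Ctrl libraries were at 26.7 and 11.9, 16.5 and 24.4, 19.0 and 25.6, 33.6 and 27.0, and 29.7 and 20.6 CPM at 0, 1, 2, 4 and 6 h. Its DI libraries were at 9.72 and 23.3, 18.1 and 24.4, 25.9 and 34.6, 31.96 and 18.8, and 27.3 and 22.1 CPM. The treatments overlapped at all times but 2 h. Scap, the escort itself, was at 4.08 to 10.2 CPM in Ctrl and 0.849 to 14.5 CPM in DI and was not called by edgeR with TMM scaling, while by library totals it was lower in DI at 4 and 6 h than at 0 h (−1.85 and −1.91, adjusted p = 0.0452 and 0.0425).

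The SREBP genes differed in their values. Srebf2, whose protein mainly drives cholesterol synthesis, had Ctrl libraries at 5.92 and 7.16, 3.53 and 3.99, 8.37 and 5.94, 4.72 and 5.66, and 3.94 and 2.69 CPM. The DI libraries were at 3.89 and 2.42, 1.61 and 1.12, 1.14 and 0.774, 2.20 and 4.77, and 0.411 and 0 CPM, below both Ctrl libraries at 0, 1, 2 and 6 h. The DI pair at 6 h held 2 counts against 20 in Ctrl, a ratio of 0.0732 with an exact 95% interval of 0.00829 to 0.301 for counting error only (edgeR adjusted p = 0.0219). The call was lost without DI replicate 2 at 2, 4 and 6 h (−2.94, adjusted p = 0.0521), without Ctrl replicate 1 at 6 h (−3.43, 0.115) or DI replicate 2 at 6 h (−2.94, 0.112), with limma-voom (0.0872) and with the compared groups alone (0.206). Against DI at 0 h it was 2 counts against 43, a ratio of 0.0794 (0.00932 to 0.305, adjusted p = 0.0161), lost without DI replicate 1 at 0 h (0.0556) or DI replicate 2 at 6 h (0.0918), with limma-voom (0.125) and with the compared groups alone (0.338). For DI against Ctrl at 2 h the Srebf2 value was −2.86 ± 0.88 (edgeR adjusted p = 0.0519).
Srebf1, whose protein drives fatty acid synthesis and which is itself an LXR target, had Ctrl libraries at 11.9 and 17.4, 13.1 and 11.5, 15.3 and 12.1, 11.1 and 12.9, and 19.0 and 10.46 CPM. In DI the libraries were at 12.9 and 16.6, 23.7 and 10.3, 15.7 and 28.9, 19.5 and 23.6, and 26.1 and 21.2 CPM. Both DI libraries were above both Ctrl libraries at 2, 4 and 6 h, by 0.70 ± 0.44, 0.84 ± 0.45 and 0.69 ± 0.45, which did not pass (adjusted p = 0.398, 0.266 and 0.348).

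Nr1h3, which encodes LXRα, was lower in DI at 1 h. In Ctrl the libraries were at 39.4 and 31.5, 33.5 and 37.3, 31.01 and 28.2, 33.3 and 42.6, and 46.2 and 37.4 CPM. DI libraries stood at 15.2 and 12.2, 17.1 and 6.00, 14.8 and 6.45, 28.5 and 19.6, and 37.6 and 14.7 CPM. At 0, 1, 2 and 4 h both DI libraries were below both Ctrl libraries of that time, and the treatments overlapped at 6 h. DI against Ctrl was −1.37 ± 0.46, −1.64 ± 0.47 and −1.47 ± 0.48 at 0, 1 and 2 h, called at 1 h (adjusted p = 0.111, 0.0409 and 0.0655), and −0.66 ± 0.46 at both 4 and 6 h. The call at 1 h was lost without Ctrl replicate 1 or 2 at 1 h (−1.71 and −1.56, adjusted p = 0.138 and 0.201) or DI replicate 2 at 1 h (−1.05, 0.432), and with the compared groups alone (0.104). DESeq2's Wald test also called it at 2 h and limma-voom at 0 h.
Nr1h2, which encodes LXRβ, had Ctrl libraries at 17.1 and 18.7, 20.6 and 19.3, 39.1 and 20.97, 26.4 and 31.9, and 34.7 and 41.9 CPM. With DI the values were 15.0 and 24.1, 13.1 and 22.9, 16.1 and 36.4, 54.2 and 49.8, and 24.0 and 25.5 CPM. It rose in Ctrl at 6 h by 1.10 ± 0.40 (adjusted p = 0.0447) and in DI at 4 h by 1.40 ± 0.40 (adjusted p = 0.0148). The Ctrl rise was lost without any 1 of its 4 libraries (adjusted p = 0.09 to 0.207) and was 0.28 by library totals (0.556). The DI rise was lost without DI replicate 1 at 0 h (1.11, 0.132) or DI replicate 1 at 4 h (1.34, 0.0528) and was 0.80 by library totals (0.117). At 4 h both DI libraries of Nr1h2 were above both Ctrl libraries, and DI against Ctrl was not called by edgeR. Over the 8 sensing genes the median of DI against Ctrl was −0.30, −0.57, −0.36, −0.42 and −0.61 at the 5 times, beside all-gene medians between −0.07 and 0.00. The genes with a negative value numbered 5, 5, 6, 6 and 7 of the 8.

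In the group of transfer, storage and efflux, Npc1 and Soat1 were higher in DI and several genes fell in stimulated Ctrl cells. Npc1, the lysosomal membrane protein that exports cholesterol, had Ctrl libraries at 393.9 and 438.7 CPM at 0 h, 336.4 and 477.3 at 1 h, 313.8 and 289 at 2 h, 131.7 and 213.8 at 4 h, and 124.2 and 123.8 at 6 h. Its DI libraries were at 744.9 and 912.2, 861.6 and 694.2, 391.7 and 561.4, 471.8 and 540, and 249.3 and 449.3 CPM. Both DI libraries exceeded both Ctrl libraries at every time.
For Npc1, DI against Ctrl was 0.99 ± 0.30, 0.93 ± 0.30 and 0.66 ± 0.30 at 0, 1 and 2 h (adjusted p = 0.0688, 0.0752 and 0.21), and 1.55 ± 0.31 and 1.49 ± 0.31 at 4 and 6 h (adjusted p = 0.00137 and 0.00142). The call at 4 h was lost without Ctrl replicate 1 at 4 h (1.24, adjusted p = 0.0639). That at 6 h was lost without DI replicate 2 at 6 h (1.01, 0.0545), though without DI replicate 2 at 2, 4 and 6 h together it was 1.01 (0.045). In Ctrl it fell by 1.27 ± 0.30 and 1.75 ± 0.31 at 4 and 6 h (adjusted p = 0.00271 and 1.07e-04), and in DI by 1.25 ± 0.30 at 6 h (adjusted p = 0.00424). The Ctrl call at 4 h was lost without Ctrl replicate 1 at 4 h (−0.96, 0.0877) and the DI call without DI replicate 1 at 6 h (−0.88, 0.0808). The response did not differ by the test (0.56 ± 0.42 and 0.50 ± 0.42 at 4 and 6 h, adjusted p = 0.742 and 0.758), so that the gap between treatments at 6 h was not shown to exceed that at 0 h.

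**Figure D3:**
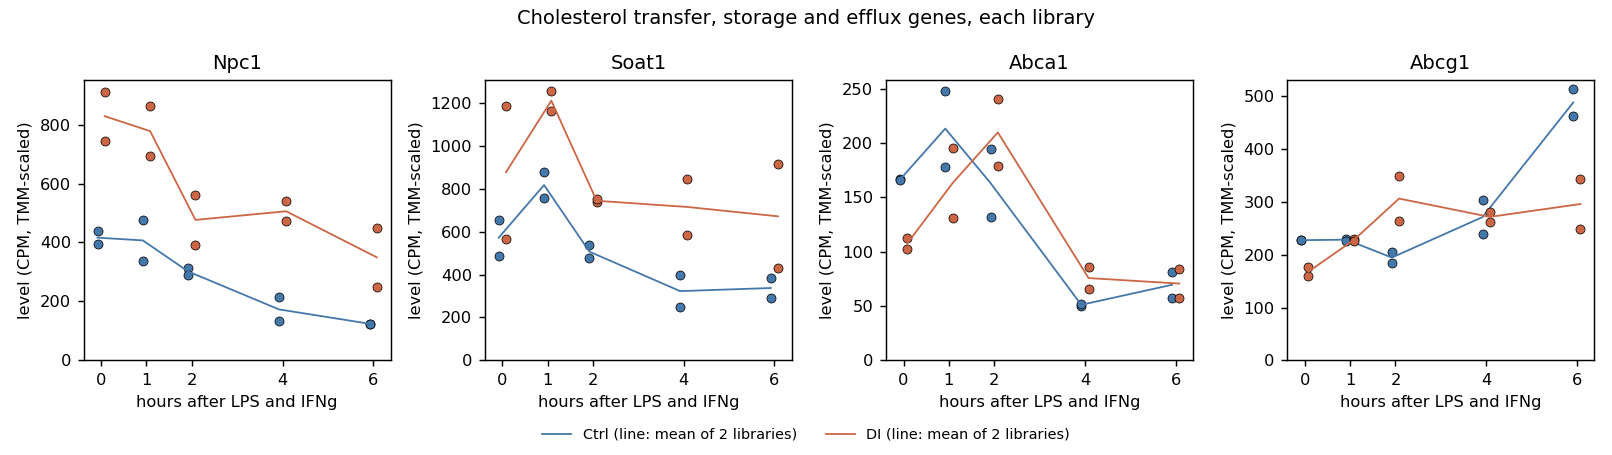
Level in CPM (TMM-scaled, linear axes from 0) of Npc1, Soat1, Abca1 and Abcg1 against hours after LPS and IFNg. Points are single libraries and lines join means of 2 libraries; both DI libraries (orange) of Npc1 lie above both Ctrl libraries (blue) at all 5 times, and Abca1 is near 51 CPM in both Ctrl libraries at 4 h.

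Npc2, the soluble partner that hands cholesterol to NPC1 in the lysosome, was called over time and not between the treatments. Ctrl libraries stood at 1009 and 977.7, 1462 and 1018, 1336 and 1397, 1826 and 1920, and 1717 and 1864 CPM. The DI libraries were at 1231 and 982.6, 1033 and 1078, 1386 and 1630, 1489 and 1469, and 2301 and 1910 CPM. It rose by 0.92 ± 0.24 and 0.85 ± 0.24 in Ctrl at 4 and 6 h (adjusted p = 0.00559 and 0.00907) and by 0.93 ± 0.24 in DI at 6 h (adjusted p = 0.00677). By library totals these were 0.05, 0.03 and 0.37 (adjusted p = 0.87, 0.918 and 0.252), and with factors from genes of at least 32 CPM the Ctrl values were 0.57 and 0.55 (0.0832 and 0.0958), so the rise is relative to the bulk of genes. The calls were lost without Ctrl replicate 2 at 0 h at 4 h (0.0569), without Ctrl replicate 1 or 2 at 0 h or replicate 2 at 6 h at 6 h (0.056, 0.0755 and 0.0655), and in DI without DI replicate 2 at 0 h (0.0745) and with the compared groups alone (0.126).

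Soat1, which esterifies cholesterol for storage in droplets, was higher in DI at 4 h. Its Ctrl libraries were at 656.3 and 489, 879.3 and 757.7, 537.6 and 477.4, 249.8 and 396.3, and 383.6 and 291.5 CPM. In DI the libraries were at 566.2 and 1190, 1166 and 1259, 738.5 and 751.5, 587.2 and 845.1, and 429.9 and 914.8 CPM. From 1 h on both DI libraries exceeded both Ctrl libraries of that time. DI against Ctrl was 0.62, 0.57, 0.55, 1.15 and 0.99 with standard errors of 0.34 to 0.35 (adjusted p = 0.469, 0.458, 0.393, 0.0369 and 0.0575). The call at 4 h was lost without DI replicate 2 at 2, 4 and 6 h (0.86, adjusted p = 0.177), without Ctrl replicate 1 or 2 at 4 h (0.85 and 1.52, 0.328 and 0.0593) or DI replicate 2 at 4 h (0.86, 0.265). DESeq2's Wald test called it at 6 h too.
Stard4, a cytosolic sterol carrier and SREBP target, was under 10 CPM in every library and is named after its values were seen. The Ctrl libraries were at 6.40 and 6.45, 9.80 and 5.25, 1.72 and 2.77, 0.556 and 0.679, and 1.07 and 1.20 CPM. DI libraries stood at 2.47 and 5.65, 3.62 and 3.91, 4.09 and 1.81, 3.90 and 2.65, and 0.617 and 1.13 CPM. In Ctrl it fell by 3.33 ± 0.92 at 4 h (adjusted p = 0.00891), on 5 counts in all, and by 2.48 ± 0.88 at 6 h (adjusted p = 0.0393). The first was lost without either Ctrl library at 4 h (0.09 and 0.0796), and the second without any 1 of its 4 libraries (0.123 to 0.19) and with no filter (0.0721). The DI change at 4 h was −0.32 ± 0.79 (adjusted p = 0.83), and the response difference of 3.01 ± 1.21 had adjusted p = 0.347.

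The efflux pumps ABCA1 and ABCG1, which load cholesterol onto apolipoprotein A-I and onto HDL, changed in opposite directions in Ctrl by TMM scaling at 6 h. Abca1, at chr4:53030787-53159895 on the minus strand (GRCm38), had Ctrl libraries at 166.9 and 165.7, 178.4 and 248.2, 131.9 and 194.2, 50.3 and 51.9, and 81.6 and 57.4 CPM. With DI the values were 112.2 and 102.7, 195.1 and 131.0, 179.1 and 240.4, 85.6 and 65.7, and 84.1 and 57.2 CPM. In Ctrl it fell by 1.70 ± 0.31 at 4 h (adjusted p = 1.84e-04, kept under every alternative) and by 1.26 ± 0.31 at 6 h (adjusted p = 0.00325, lost without Ctrl replicate 2 at 6 h at −1.03, 0.0748). In DI it was higher at 2 h than at 0 h by 0.97 ± 0.31 (adjusted p = 0.0411), and at 4 and 6 h the values were −0.51 ± 0.31 and −0.60 ± 0.31 (0.272 and 0.178). The rise in DI was lost in 8 of 13 alternatives, among them library totals (0.50, 0.254), the fit without DI replicate 2 at 2, 4 and 6 h (0.74, 0.197), and those without DI replicate 1 or 2 at 0 h or replicate 2 at 2 h (0.0995, 0.166 and 0.263). The response difference at 4 h was 1.20 ± 0.43 (adjusted p = 0.275), and DI against Ctrl was called at no time.
Abcg1 had Ctrl libraries at 227.9 and 227.2, 230.4 and 226.8, 184.8 and 204.5, 239.5 and 303.2, and 463.4 and 513.6 CPM. Its DI libraries were at 159.9 and 176.0, 229.7 and 225.8, 264.4 and 348.5, 262.7 and 280.7, and 248.0 and 344.3 CPM. At 6 h both Ctrl libraries were above all other libraries. In Ctrl it rose by 1.10 ± 0.25 at 6 h (adjusted p = 0.00165), which was 0.29 by library totals (0.339), where the median of all genes was −0.99. By library totals Abcg1 was lower in Ctrl at 2 and 4 h (−0.79 and −0.62, adjusted p = 0.0238 and 0.0443), against −0.23 and 0.26 by TMM. In DI it rose by 0.87 ± 0.25 at 2 h and 0.82 ± 0.25 at 6 h (adjusted p = 0.0248 and 0.0223), each lost in 9 of 13 alternatives. Among these were library totals (0.41 and 0.26), the fit without DI replicate 2 at 2, 4 and 6 h (0.65 and 0.56, adjusted p = 0.147 and 0.163) and those without DI replicate 1 or 2 at 0 h (0.11 and 0.0622 at 2 h, 0.0949 and 0.0571 at 6 h), DI replicate 2 at 2 h (0.209) or DI replicate 2 at 6 h (0.199). DI against Ctrl at 6 h was −0.72 ± 0.25 (adjusted p = 0.0555).
Over these 6 genes the median change from 0 h in Ctrl was 0.27, −0.20, −1.05 and −1.01 at 1, 2, 4 and 6 h, and in DI 0.19, 0.11, −0.31 and −0.49.

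**Figure D4:**
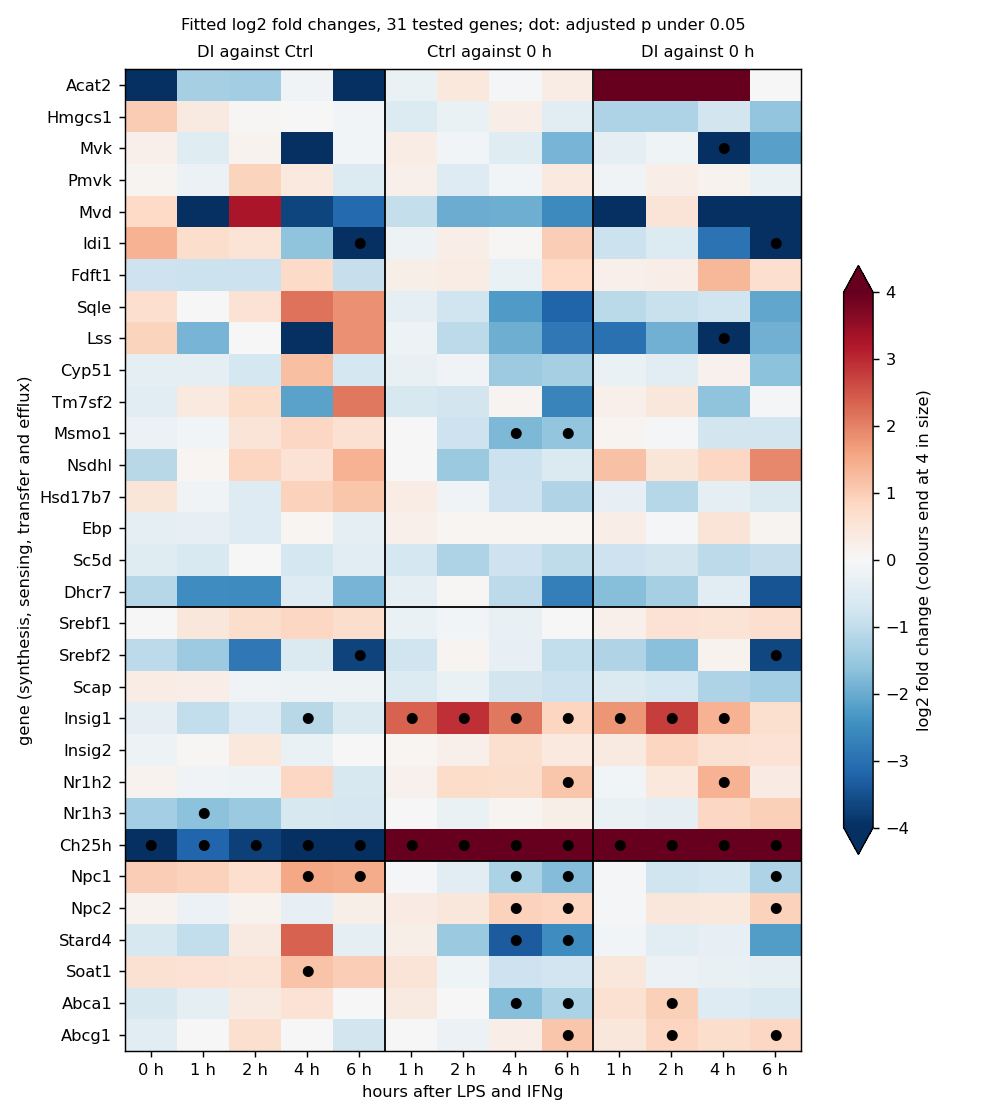
Fitted log2 fold changes of the 31 tested genes (rows, in the order synthesis, sensing, and transfer and efflux) in 13 comparisons (columns: DI against Ctrl at 5 times, then Ctrl and DI at 4 times against their 0 h). Red is higher and blue lower, colours end at 4 in size, dots mark an adjusted p under 0.05, and genes at 0 in a group have values that depend on the prior count; Ch25h holds a dot in every column.

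Of 18 further genes of the same pathways, listed with earlier results of these data known, all were tested, and those called higher in DI at 1 time or more were Arl4c, Cd36, Lipa, Lrp1, Mylip and Por, while Msr1 was lower. With DI 2, 3, 4, 4 and 5 of the 18 were higher at 0, 1, 2, 4 and 6 h, against 1.43%, 1.86%, 2.27%, 3.43% and 5.24% of all tested genes. At 4 and at 6 h 1 was lower, against 6.00% and 8.95%. Their median of DI against Ctrl was −0.05, −0.04, 0.07, 0.29 and 0.21. Whether the calls of these 18 genes hold under the alternatives was not examined. Cd36, a scavenger receptor for oxidised lipoproteins, was higher in DI at each time, by 1.50 ± 0.34 at 0 h (1775 CPM in DI against 629 CPM in Ctrl, adjusted p = 0.00959) and 2.02 ± 0.35 at 6 h (adjusted p = 2.08e-04). Msr1, the class A scavenger receptor, was lower by −1.15 ± 0.31 and −1.28 ± 0.31 at 4 and 6 h (adjusted p = 0.0171 and 0.00529). Mylip, the LXR-induced ligase that degrades lipoprotein receptors, was higher at 0, 1 and 6 h, with 1.34 ± 0.26 at 0 h (adjusted p = 0.00217). Por, which feeds electrons to CYP51 and SQLE, was higher from 1 to 6 h, with 1.32 ± 0.32 at 6 h (adjusted p = 0.00623). Lrp1, an endocytic receptor, was higher at 6 h by 1.16 ± 0.32 (adjusted p = 0.0165).

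Lipa, the lysosomal acid lipase that frees cholesterol from lipoprotein esters, is encoded next to Ch25h (chr19:34492318-34527474, minus strand, GRCm38), separated from Ch25h by 17154 bases. In Ctrl the libraries were at 1791 and 1720, 2186 and 2171, 2202 and 1653, 1712 and 1585, and 962.3 and 927 CPM. The DI libraries were at 2372 and 2729, 4003 and 3238, 3876 and 3685, 2972 and 3627, and 2473 and 2677 CPM. All DI libraries were above all Ctrl libraries. It was higher in DI by 0.97 ± 0.23, 1.00 ± 0.23 and 1.45 ± 0.24 at 2, 4 and 6 h (adjusted p = 0.0107, 0.00598 and 1.05e-04), where Ch25h was lower, and in Ctrl it fell by 0.89 ± 0.23 at 6 h (adjusted p = 0.0049).

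After the stimulus 1 of the 18 genes was higher in Ctrl at 2 and at 4 h, against 9.13% and 14.7% of all tested genes, and 1, 5 and 6 were lower at 2, 4 and 6 h, against 3.09%, 9.58% and 11.3%. In DI 1 was higher at 2 h, against 7.89%, and 1, 2 and 2 were lower at 2, 4 and 6 h, against 3.09%, 7.34% and 8.91%. At 6 h Lrp1 was at −2.95 ± 0.34 in Ctrl (adjusted p = 2.33e-07) and −1.48 ± 0.32 in DI (adjusted p = 0.00128). Por was at −2.22 ± 0.33 in Ctrl (adjusted p = 1.07e-05) and −1.50 ± 0.32 in DI (adjusted p = 0.0013). Scarb1, the HDL receptor, and Nceh1, a neutral ester hydrolase, fell in Ctrl at 6 h, with −2.13 ± 0.60 and −1.17 ± 0.42 (adjusted p = 0.00889 and 0.0387). Mylip rose in Ctrl at 2 and 4 h by 1.30 ± 0.26 and 1.45 ± 0.26 (adjusted p = 7.81e-04 and 1.27e-04).
Arl4c, an LXR target linked to efflux, was the 1 gene of this list whose response difference was called. That call was not examined under the alternatives. Ctrl libraries stood at 89.3 and 73.3, 75.9 and 79.8, 53.9 and 57.4, 25.0 and 23.8, and 30.8 and 33.2 CPM. In DI the libraries were at 34.8 and 52.1, 87.6 and 58.2, 89.7 and 153.5, 60.7 and 44.8, and 47.5 and 55.5 CPM. Both DI libraries were under both Ctrl libraries at 0 h and above them at 2, 4 and 6 h, and the response difference was 2.03 ± 0.45 at 2 h (adjusted p = 0.0404) and 2.01 ± 0.45 at 4 h (adjusted p = 0.0271).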

How the data were processed

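RNA of 20 libraries in 10 groups was analysed. Per the labels' protocols, poly(A) RNA was primed with barcoded oligo-dT, pooled by Actb, amplified for 12 cycles of PCR and sequenced strand-specifically from 3' ends, and no molecular identifiers are named. Per the submitters' processing notes, STAR, HTSeq, DESeq2 and mm10 were used, without versions. The authors deposited raw counts per Ensembl gene without normalization. Symbols came from GENCODE M21 (GRCm38), and 21745 of 22165 rows matched. PCR copies are not independent molecules, so intervals and floors cover counting error only. In 1 library 3 counts are 0.336 to 0.821 CPM in Ctrl and 0.446 to 0.753 in DI.

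Genes were filtered with filterByExpr by group (10663 kept), scaled with TMM and fitted over all 20 libraries, 1 coefficient per group, with edgeR 4.0.16 (glmQLFit robust, glmQLFTest) in R 4.3.3. Adjusted p-values are Benjamini-Hochberg within each of 17 contrasts. The standard error is the log2 fold change divided by the square root of F. Each gene's estimate of spread was shared by Ctrl and DI. Between the libraries of a group, the chi-square of counts per degree of freedom was 15.9 to 26.2 in Ctrl and 30.5 to 45.5 in DI. Alternatives were DESeq2 1.42.0 (size factors, Wald test), limma 3.58.1 (voom with quality weights by treatment), TMM factors of genes of at least 32 CPM, no filter, the compared groups alone, a replicate block, leaving out each library, leaving out DI replicate 2 at 2, 4 and 6 h, and, chosen after seeing the data, library totals. The fit was also run on simulated counts, which did not include the low complexity of the DI libraries. That run cannot speak to calls at low counts. Marker sums were scaled to library totals.

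Members with values per library are those called at 10 CPM or more in the higher group and Srebf1, Srebf2, Insig1, Insig2, Nr1h3, Abca1, Abcg1, Ch25h, Soat1, Hmgcs1, Sqle and Idi1, the others being given by range and counts. Stard4, Lss and Mvk, called under 10 CPM, were added after their values were seen. Members and lists were chosen with earlier results of these data known.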

Additional observations from a re-analysis of the deposited data

Results flagged for a closer look

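Idi1 was flagged because its response to the stimulus differed between DI and Ctrl at 6 h, by a test of the difference itself. The fitted difference was −9.05 on the log2 scale (edgeR adjusted p = 0.0366), with Idi1 at 0 counts in both DI libraries at 6 h, so its size depends on the prior count and is no bound. Over 17 alternatives the value ran from −9.84 to −6.28, and 7 kept the call. In the libraries behind it Idi1 held 8 and 89 counts in DI at 0 h, 31 and 20 in Ctrl at 0 h, and 14 and 13 in Ctrl at 6 h. The share of genes at 0 among those with 4 to 12 expected counts was 17.2 to 50.4% in DI libraries against 3.04 to 13.5% in Ctrl, and its part in this result was not tested.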

How the results depend on the processing

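Of 50 called member results 12 were kept in every alternative, and of 654 values under alternatives 531 kept the call, 123 did not and 0 reversed. Members called, where an alternative moved the number beyond 1.5 times, were as follows, and the cause was not tested. The share of all genes called was not counted under the alternatives. For DI against Ctrl at 0 h (1 called) there were 3 with no filter, 2 with DESeq2's Wald test, 2 with limma-voom, 0 with the compared groups alone and 3 when DI replicate 2 at 2, 4 and 6 h was left out. At 1 h (2) there were 1 with the compared groups alone and 4 without those 3 libraries. At 2 h (1) there were 2 with DESeq2 size factors, 2 with no filter, 3 with the Wald test and 0 with limma-voom, and at 4 h (4) there were 2 without those 3 libraries. In Ctrl limma-voom gave 6, 11 and 15 at 2, 4 and 6 h (2, 7 and 9), the compared groups alone 5, 13 and 15, and library totals 6 and 13 at 2 and 4 h. In DI limma-voom gave 1, 1, 3 and 3 at 1, 2, 4 and 6 h (2, 4, 5 and 6), the compared groups alone 2, 3 and 3 at 2, 4 and 6 h, library totals 10 and 11 at 4 and 6 h, and the fit without the 3 libraries 2 at 2 h. For the response difference at 6 h (1) limma-voom and the compared groups alone gave 0. Leaving out 1 library gave 1 to 2, 1 to 2 and 1 to 5 for DI against Ctrl at 1, 2 and 4 h, 3 to 6 at 6 h, 3 to 6 in Ctrl at 6 h, 2 to 4 and 3 to 9 in DI at 2 and 6 h, and 0 to 1 for the response difference at 6 h.

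The correlation of deviations between DI and Ctrl of the same replicate number and time was low, at −0.179 to 0.079 over 5 pairs. Over all 45 pairs of groups it was −0.345 to 0.271, with a median of −0.018. Low correlations cannot decide whether libraries of the same number shared a batch. Replicate number did go with library quality. In every group replicate 2 had the lower share of mitochondrial counts. In DI it also had the larger share of low genes without any count at every time. With a replicate block 2 members were called for DI against Ctrl at 0 h and 2 at 2 h, and 0 for the response difference at 6 h, where Idi1 was at −8.94 (adjusted p = 0.0545).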
